A study of Mus musculus with 8 samples.

Results

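Eda2r and a set of genes known as transcriptional targets or regulators of the tumour suppressor p53 were followed in SCA17 knock-in mice (KI) and wild-type controls (WT), in the tibialis anterior (TA) muscle and in the cerebellum. The set lists 9 genes: Trp53, which encodes p53, and Eda2r, Zmat3, Trp53inp1, Cdkn1a, Mdm2, Ccng1, Bax and Phlda3. A gene was read from a probe set whose platform annotation names that gene alone, and 6 of the 9 were found in this way among the 19938 genes named: Eda2r, Zmat3, Trp53inp1, Mdm2, Ccng1 and Phlda3, with 1 probe set each. The probe set of Cdkn1a carries a second gene symbol, so no value is given for it. Trp53 and Bax were not analysed here.

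The 8 Affymetrix Mouse Gene 1.0 ST arrays formed 4 groups of 2: KI muscle (replicates 94 and 97), WT muscle (95 and 96), KI cerebellum (94 and 97) and WT cerebellum (95 and 96). All mice were 3 months old. SCA17, spinocerebellar ataxia type 17, is inherited as a dominant disease and arises when the polyglutamine stretch of TBP is too long; TBP binds TATA boxes and starts transcription. RNA came from 3 mice per genotype according to the study text, while each group holds 2 arrays here. Which repeat length, which strain and which cells with an active knock-in allele were used is not stated in the labels.

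The p53 protein is a transcription factor that is kept low by the ubiquitin ligase Mdm2 and accumulates after DNA damage and other stress. Its targets stop the cell cycle (Cdkn1a), start apoptosis (Bax), feed back on p53 itself (Mdm2) or act in repair and metabolism. Eda2r encodes a receptor of the tumour necrosis factor receptor family that binds ectodysplasin A2. It is a p53 target in human cells, and in mouse skeletal muscle its signalling through the kinase NIK has been linked to muscle wasting.

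The arrays had medians from 5.40 to 5.51 on the log2 scale, and r between replicates was 0.977 to 0.989 across probe sets, which are not independent of each other. The labelled tissues fitted their markers: all 10 skeletal muscle markers were called higher and all 9 cerebellum markers called lower in WT muscle than in WT cerebellum by limma. Tbp, the gene altered in the KI mice, differed by 0.11 ± 0.12 in muscle and by -0.18 ± 0.12 in the cerebellum (log2, KI minus WT, SE; adjusted p = 0.634 and 0.998 in limma), which says nothing about the length of its repeat. No source says that the arrays come from separate animals, so the p-values measure the spread between these samples, and precision is limited by how many arrays there are. An exact permutation test of 2 arrays against 2 cannot give a two-sided p below 0.333, so all tests come from the limma fit across genes, which pools the spread of the 4 groups.

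In muscle, 2 of the 6 measured genes rose in KI mice and none fell. Eda2r rose 2.66-fold and Zmat3 rose 1.43-fold. Trp53inp1 was 1.60-fold higher on average without passing the test, while Mdm2, Ccng1 and Phlda3 had differences of -0.04, -0.03 and -0.20 on the log2 scale. A gene was called at an adjusted p under 0.05 in limma, which 3.55% of the 13933 genes tested in muscle reached, 2.66% higher and 0.89% lower in KI mice. The set was chosen with earlier results of these data known, so the median and shares given here describe it and do not test it. The median log2 difference of the 6 genes was 0.24, against 0.03 over all genes tested in muscle. Of the 6 genes, 3 had an unadjusted p under 0.05, against 20.3% of all genes, and 3 had a positive difference, against 55% of all genes. In 3 of the 6 genes the KI arrays were both higher than either WT array, against 30.3% of all genes, and in 1 both were lower, against 19.9%. Without overlap in either direction were 4 of the 6, against 50.2% of all genes. In whole muscle RNA, fewer cells of a type and less RNA per cell cannot be told apart.

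**Figure D1:**
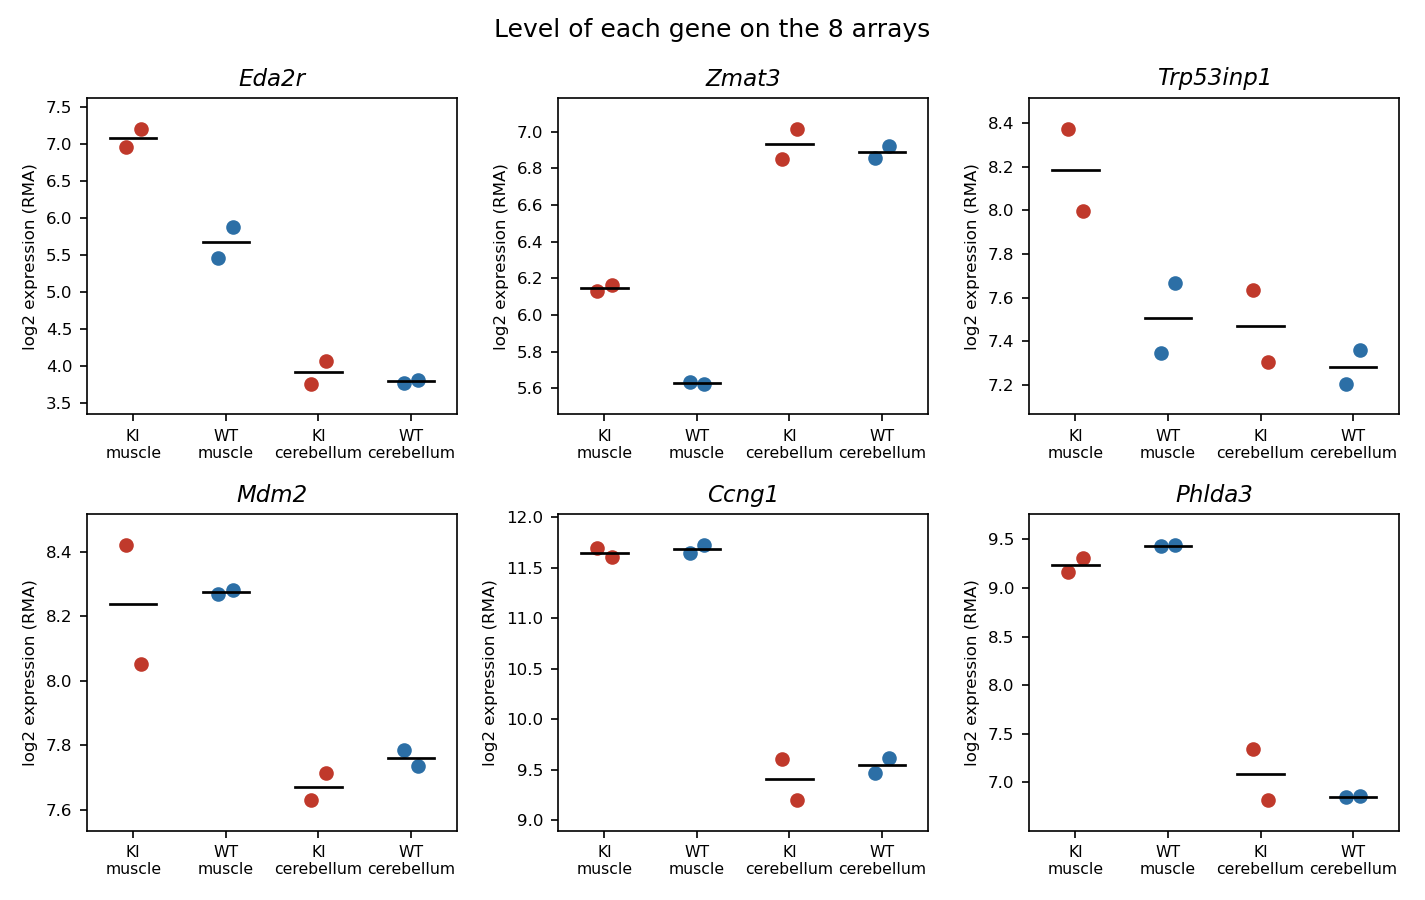
Deposited log2 expression values of the 6 measured genes on the 8 arrays, with KI in red and WT in blue; each point is an array and each black line the mean of its 2 arrays, and each gene has its own vertical axis, which does not start at 0. Eda2r and Zmat3 were higher on both KI muscle arrays than on both WT muscle arrays, and Ccng1 and Phlda3 separated the tissues more than the genotypes.

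Eda2r, the ectodysplasin receptor gene (probe set 10605874, chromosome X), had log2 levels of 6.96 and 7.21 on the KI muscle arrays, against 5.46 and 5.88 on the WT muscle arrays. Both KI arrays were above both WT arrays, and the gap between the genotypes exceeded the gap of 0.41 between the WT arrays. On each array, these levels stood at the percentiles 76.4 and 79.5 of all probe sets in KI muscle, against 49.8 and 59.5 in WT muscle. Means were 7.08 ± 0.17 in KI muscle and 5.67 ± 0.29 in WT muscle (SD, n = 2 each). The log2 difference was 1.41 ± 0.16 (SE; 95% interval 1.04 to 1.78), with an adjusted p of 0.00414 in limma. It was the 19th largest rise among the 13933 genes and the 34th smallest p. Of 17 alternatives tried, the call was lost only when every probe set of the table was tested (adjusted p = 0.103).

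In the cerebellum, Eda2r was at 3.77 and 4.07 on the KI arrays, against 3.77 and 3.82 on the WT arrays. The arrays of the genotypes overlapped, and all 4 lay between the percentiles 18.8 and 22.2 of their arrays. This is below the 40th percentile that a gene had to reach on 2 of the 4 arrays of a tissue, so the genotypes were not tested there. The mean difference was 0.12 on the log2 scale. The difference between the 2 tissues' KI effects, muscle minus cerebellum, was 1.29 ± 0.23 (log2, SE; 95% interval 0.77 to 1.82) and did not pass, with an adjusted p of 0.0815 in limma.

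The promoter of Eda2r is shown because the gene had the largest rise of the set. It was searched for TATAAA because the protein altered in these mice binds TATA boxes, and whether that protein acts on Eda2r was not tested. RefSeq (GRCm38.p6) places the start site so that the window from 250 bases before it to 50 after it is chrX:97377160-97377459 on the minus strand. The capitals mark a TATAAA match, which begins 58 bases before the start site.
Eda2r: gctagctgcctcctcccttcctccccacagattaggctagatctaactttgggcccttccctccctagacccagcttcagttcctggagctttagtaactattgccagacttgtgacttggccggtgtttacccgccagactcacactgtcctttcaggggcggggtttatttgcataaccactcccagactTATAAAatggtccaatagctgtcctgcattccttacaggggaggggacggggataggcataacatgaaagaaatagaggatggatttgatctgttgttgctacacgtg
TATAAA on either strand occurs in 13.6% of the 32851 promoter windows of the same length. The Eda2r window holds no match to the p53 half-site, the 10-base motif of which pairs make up a full p53 response element; 8.36% of all windows hold a match. It also holds GGGCGG, as do 35.7% of all windows, and its GC content is 50.3%. A match is a description of these letters and not a mapped binding site, and a missing match covers this window alone.

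Zmat3 encodes a zinc-finger protein that binds RNA and is induced by p53 (probe set 10497673, chromosome 3). Its levels were 6.13 and 6.17 in KI muscle, against 5.64 and 5.63 in WT muscle. Both KI arrays were above both WT arrays, and within each genotype the arrays differed by 0.04 or less. The log2 difference was 0.52 ± 0.11 (SE; 95% interval 0.28 to 0.76; adjusted p = 0.0337 in limma), and the means were 6.15 ± 0.02 in KI muscle and 5.63 ± 0.01 in WT muscle (SD, n = 2 each). This call depended on single arrays: it was lost without any of the 4 muscle arrays in turn (adjusted p = 0.0983 to 0.137) and without either WT cerebellum array (adjusted p = 0.0698), while the log2 difference stayed between 0.50 and 0.53.

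In the cerebellum, Zmat3 was at 6.85 and 7.02 on the KI arrays, against 6.86 and 6.92 on the WT arrays. The genotypes overlapped, with a log2 difference of 0.04 ± 0.11 (SE; 95% interval -0.20 to 0.28). The tissues' KI effects differed by 0.47 ± 0.15 (log2, SE; adjusted p = 0.244 in limma), which did not pass.

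Trp53inp1 encodes a stress-induced nuclear protein that promotes p53 activity and autophagy (probe set 10503259, chromosome 4). It was at 8.38 and 8.00 in KI muscle, against 7.34 and 7.67 in WT muscle. The groups did not overlap, but the arrays within each genotype differed by 0.38 in KI and 0.32 in WT muscle. The log2 difference of 0.68 ± 0.17 (SE; 95% interval 0.29 to 1.07) did not pass, at an adjusted p of 0.0679 in limma. At an adjusted p under 0.05 it passed under 1 of 17 alternatives, trended and robust variances (adjusted p = 0.0393). In the cerebellum it was at 7.63 and 7.30 on the KI arrays, against 7.21 and 7.36 on the WT arrays, and the genotypes overlapped. The log2 difference there was 0.19 ± 0.17 (SE; 95% interval -0.20 to 0.58), and the tissues' effects differed by 0.49 ± 0.24 (SE; adjusted p = 0.403 in limma).

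Mdm2, the ubiquitin ligase that degrades p53 and is itself a p53 target (probe set 10372668, chromosome 10), was at 8.42 and 8.05 in KI muscle, against 8.27 and 8.28 in WT muscle. The KI arrays lay on either side of the WT arrays. The log2 difference was -0.04 ± 0.13 (SE; adjusted p = 0.909 in limma), and its 95% interval from -0.33 to 0.26 leaves room for changes of up to 1.20-fold upwards. In the cerebellum, Mdm2 was at 7.63 and 7.71 on the KI arrays, against 7.78 and 7.74 on the WT arrays, so that both KI arrays were slightly below both WT arrays. That difference was -0.09 ± 0.13 (log2, SE; adjusted p near 1 in limma).

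Ccng1 encodes cyclin G1, which recruits the phosphatase PP2A to Mdm2 (probe set 10385271, chromosome 11). It was at 11.69 and 11.61 in KI muscle, against 11.64 and 11.73 in WT muscle, and the genotypes overlapped. The log2 difference was -0.03 ± 0.14 (SE; 95% interval -0.36 to 0.29; adjusted p = 0.926 in limma). In the cerebellum it was at 9.61 and 9.20 on the KI arrays, against 9.47 and 9.62 on the WT arrays, with a log2 difference of -0.14 ± 0.14 (SE). The genotypes overlapped there too. The KI cerebellum arrays differed from each other by 0.41, more than the genotypes did.

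Promoter windows of Mdm2 and Ccng1 are shown because each holds a match to the p53 half-site, in capitals. Whether p53 acts on any gene of the set through such a match was not tested. The windows are chr10:117710709-117711008 and chr11:40755237-40755536, both on the minus strand of GRCm38.p6 (RefSeq).
Mdm2: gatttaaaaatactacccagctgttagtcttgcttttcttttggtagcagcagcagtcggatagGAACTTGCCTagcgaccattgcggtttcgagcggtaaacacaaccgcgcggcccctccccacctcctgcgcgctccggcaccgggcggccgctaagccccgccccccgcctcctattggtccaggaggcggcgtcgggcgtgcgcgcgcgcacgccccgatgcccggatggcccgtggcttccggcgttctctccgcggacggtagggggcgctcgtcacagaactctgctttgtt
Ccng1: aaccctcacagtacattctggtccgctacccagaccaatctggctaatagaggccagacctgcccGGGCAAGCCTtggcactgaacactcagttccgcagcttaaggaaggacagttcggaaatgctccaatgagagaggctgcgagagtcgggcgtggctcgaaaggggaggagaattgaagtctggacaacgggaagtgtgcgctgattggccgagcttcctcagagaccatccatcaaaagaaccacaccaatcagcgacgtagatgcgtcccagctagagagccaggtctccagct
The match begins 186 bases before the start site of Mdm2 and 185 bases before that of Ccng1. Neither window holds a pair of half-sites within 13 bases of each other, which 0.0731% of all windows do. GC content is 64.7% for Mdm2 and 55.7% for Ccng1. The window of Phlda3 (chr1:135765835-135766134, plus strand) holds no half-site match. RefSeq windows were found for 4 of the 6 measured genes, not for Zmat3 and Trp53inp1.

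Phlda3 encodes a pleckstrin-homology protein that holds back the kinase Akt (probe set 10350146, chromosome 1). It was at 9.16 and 9.31 in KI muscle, against 9.43 and 9.44 in WT muscle. Both KI arrays were below both WT arrays, but the log2 difference of -0.20 ± 0.16 (SE; 95% interval -0.56 to 0.16) did not pass (adjusted p = 0.534 in limma). In the cerebellum it was at 7.35 and 6.82 on the KI arrays, against 6.85 and 6.86 on the WT arrays. The KI arrays differed by 0.53, the widest gap between replicates in the set, and lay on either side of the WT arrays; the log2 difference was 0.23 ± 0.16 (SE; 95% interval -0.13 to 0.59).

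In the cerebellum, 5 of the 6 genes were tested and none was called, and none had an unadjusted p under 0.05. In limma, 0.205% of the 13641 genes tested there were called, 0.147% higher and 0.0586% lower in KI mice, and 5.33% had an unadjusted p under 0.05. No tested gene of the set had both KI arrays above both WT arrays, against 15.3% of all genes. Mdm2 alone had both KI arrays below both WT arrays, against 20% of all genes; 35.3% of all genes did not overlap in either direction. Of the 5 genes, 3 had a positive difference, against 47.5% of all genes. Their median log2 difference was 0.04, against -0.01 over all genes tested. For the difference between the tissues' KI effects, 0.143% of 14708 genes were called, 0.102% higher and 0.0408% lower, and none of the 6 genes was among them. At an unadjusted p under 0.05 there were 2 of the 6, Eda2r and Zmat3, against 13.8% of all genes, and the difference of Eda2r uses cerebellum values below the filter. Effects called in muscle are therefore not shown to differ from those in the cerebellum for any gene of the set.

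**Figure D2:**
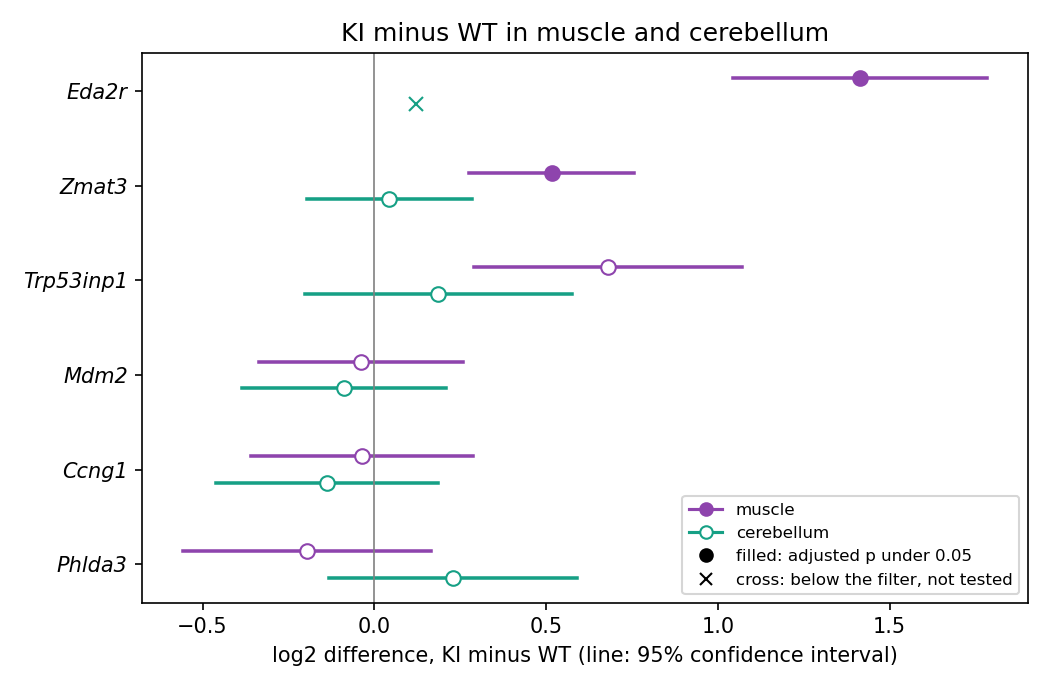
KI minus WT on the log2 scale for each gene in muscle (purple) and cerebellum (green), with lines for the 95% confidence intervals of the limma fit; filled points passed an adjusted p of 0.05, and the cross marks Eda2r in the cerebellum, below the filter. The intervals of Eda2r, Zmat3 and Trp53inp1 in muscle lay above 0, and all others included 0.

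The tissues differed more than the genotypes for most of the set. Between WT muscle and WT cerebellum, 4 of the 6 genes were called at an adjusted p under 0.05 and at least a 2-fold change in limma, as were 27.3% of 14708 genes. Eda2r entered that test through muscle alone, since it was below the filter in the cerebellum; of the 5 genes that passed the filter in both tissues 3 were called, against 24.8% of all such genes. Ccng1 and Phlda3 were higher in WT muscle, by 4.41-fold and 5.98-fold, where 10.9% of all genes were called higher. For Eda2r only a lower bound is given, with each cerebellum array set to its 40th percentile: the gene was at least 1.60-fold higher in WT muscle, a bound under the 2-fold limit. Zmat3 was the only gene of the set called lower, 2.39-fold lower in WT muscle, where 16.4% of all genes were called lower (log2 difference -1.26; adjusted p = 4.84e-06 in limma). Mdm2 was 1.43-fold higher in WT muscle (adjusted p = 0.0068 in limma), and Trp53inp1 did not pass (adjusted p = 0.277).

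Between KI muscle and KI cerebellum, Ccng1 was 4.74-fold and Phlda3 4.45-fold higher in muscle, where 25.6% of all genes were called, 11.4% higher and 14.2% lower; among genes that passed the filter in both tissues 22.9% were called. Eda2r was at least 4.19-fold higher in KI muscle by the same bound. Zmat3 was 1.72-fold lower in KI muscle than in KI cerebellum, under the 2-fold limit. Within each gene, the 4 groups can be put in order. For Eda2r the order was KI muscle, WT muscle and then the 2 cerebellum groups, which overlapped. For Zmat3 the overlapping cerebellum groups came first, above KI muscle (adjusted p = 0.000204 in limma between WT cerebellum and KI muscle), and WT muscle came last. For Ccng1 and Phlda3 the muscle groups came first and the cerebellum groups last, and the genotypes within a tissue were not called. For Mdm2, WT muscle and KI muscle were above WT cerebellum (adjusted p = 0.0106 in limma between KI muscle and WT cerebellum). For Trp53inp1 no neighbouring groups were called.

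Other genes of the p53 pathway were read in the same way. Of 40 other p53 targets listed, 38 were named on the array and 36 were tested in muscle; none was called higher and 1, Tigar, was called lower in limma, against 3.55% of all genes called in either direction. Differences were positive for 19 and negative for 17, with a median of 0.02, and 8 had an unadjusted p under 0.05, against 20.3% of all genes. The KI arrays were both higher than either WT array for 10 of the 36 genes and both lower for 8, against 30.3% and 19.9% of all genes. By role, 8 cell-cycle targets had a median difference of 0.05, 10 apoptosis targets -0.09 and 18 targets in repair and metabolism 0.14 (log2).

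Tigar, an enzyme that lowers fructose 2,6-bisphosphate and with it glycolysis (chromosome 6), was at 7.73 and 7.76 in KI muscle, against 8.33 and 8.30 in WT muscle. It fell by 0.56 ± 0.11 on the log2 scale (SE; adjusted p = 0.0320 in limma). In the cerebellum it was at 6.75 and 6.74 on the KI arrays, between the WT values of 6.59 and 6.84. The call was lost without any of the 4 muscle arrays in turn (adjusted p = 0.0912 to 0.145) and without either KI cerebellum array (adjusted p = 0.0518). Rrm2b, a ribonucleotide reductase subunit induced by p53, was at 7.86 and 7.56 in KI muscle, against 6.96 and 7.37 in WT muscle, and did not pass (log2 difference 0.55 ± 0.16, SE; adjusted p = 0.0962 in limma). Among cell-cycle targets, Gadd45a, a growth-arrest gene, had the smallest p, with a difference of 0.43 ± 0.17 (adjusted p = 0.195), and Plk2 and Ptprv had 0.24 and -0.18. Among apoptosis targets, Apaf1, which assembles the apoptosome, had the smallest, with 0.34 ± 0.12 (adjusted p = 0.156), and Pidd1 and Aen had -0.23 and -0.27. Abhd4 and Pml, of the repair and metabolism list, had 0.33 and 0.30; none of these 6 passed. In the cerebellum none of the 31 tested targets was called in limma and 1 had an unadjusted p under 0.05, against 5.33% of all genes; 16 differences were positive and 15 negative.

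Regulators of p53 were not called in either tissue, where 3.55% of all genes in muscle and 0.205% in the cerebellum were. In muscle 14 of 16 listed were tested, with 9 positive and 5 negative differences, a median of 0.09 (log2) and 4 genes at an unadjusted p under 0.05 in limma, against 20.3% of all genes. Hipk2, a kinase that phosphorylates p53, was at 8.85 and 8.71 in KI muscle, against 8.27 and 8.42 in WT muscle (log2 difference 0.44 ± 0.12, SE; adjusted p = 0.0803 in limma). Trp53bp1, a DNA-break repair factor that binds p53, had a log2 difference of 0.49 ± 0.14 (SE; adjusted p = 0.0972), and Trp63, a p53 relative, one of 0.51 ± 0.18 (SE; adjusted p = 0.157). Cdkn2a, also among the 4 genes at an unadjusted p under 0.05, went the other way, with both KI arrays below both WT arrays. Its log2 difference was -0.27 ± 0.11 (SE, adjusted p = 0.225 in limma). Mdm4, the partner of Mdm2, had -0.17 (adjusted p = 0.418). In the cerebellum 5 of 14 differences were positive, 9 were negative, and none had an unadjusted p under 0.05.

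Around the receptor Eda2r, the list of its ligand, related receptors and downstream genes held 13 genes, of which 10 were tested in muscle, and 1, Birc3, was called higher in limma, against 2.66% of all genes called higher. The others were 4 positive and 5 negative. Birc3, a ubiquitin ligase of the NF-kB pathway and also an NF-kB target, was at 6.75 and 7.16 in KI muscle, against 6.16 and 6.16 in WT muscle. It rose 1.73-fold (log2 difference 0.79 ± 0.16, SE; adjusted p = 0.0294 in limma), and the call was lost without KI muscle array 97 (adjusted p = 0.128), WT muscle array 95 (0.137) or WT muscle array 96 (0.0951). Eda, the gene of the ligand, had a log2 difference of 0.03 ± 0.16 (SE; adjusted p = 0.945). Map3k14, which encodes NIK, had -0.09 ± 0.11 (SE; adjusted p = 0.711), and Nfkb2 and Relb, whose products act in the same branch, had 0.04 and -0.03. Edaradd, an adaptor of the related receptor Edar, was lower on average in KI muscle (-0.45 ± 0.15, SE; adjusted p = 0.134), and the adaptor Traf6 higher (0.29 ± 0.11, SE; adjusted p = 0.178), neither passing. In the cerebellum, none of the 8 tested genes was called in limma or had an unadjusted p under 0.05, against 0.205% and 5.33% of all genes.

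**Figure D3:**
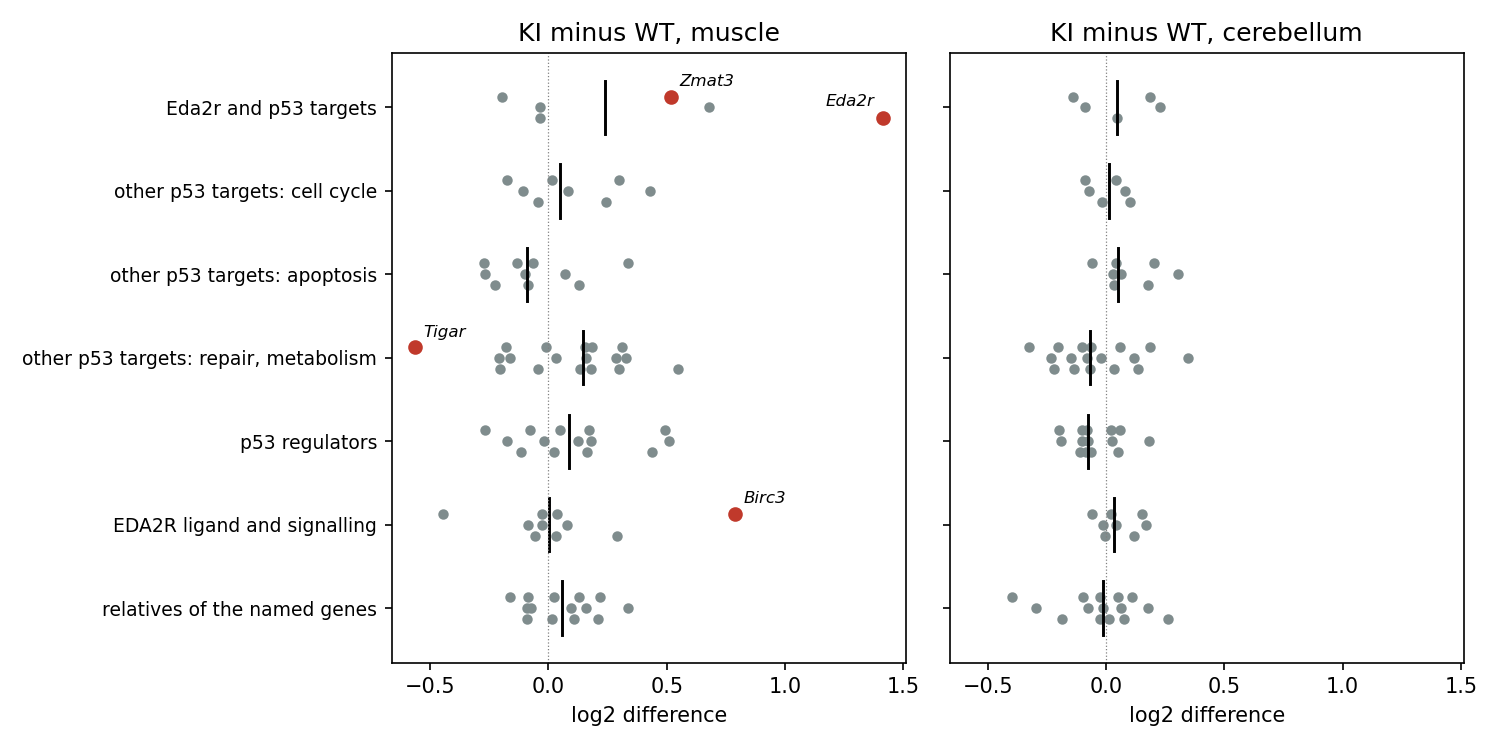
KI minus WT on the log2 scale for each tested gene of 7 gene lists, with muscle at left and cerebellum at right; points are genes spread vertically for visibility, red points with names passed an adjusted p of 0.05 in limma, and black bars are list medians. Only Eda2r, Zmat3, Tigar and Birc3 passed, all in muscle.

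Markers of cell types were read beside the muscle result. All 10 skeletal muscle markers had negative differences in KI muscle, with a median of -0.51 (log2), and both KI arrays were below both WT arrays for 9 of them, against 19.9% of all genes. Their summed linear level was 29668 to 32055 on the KI arrays, against 40200 to 43206 on the WT arrays. Actn3 and Pvalb, genes of fast fibres, were called lower, as were 0.89% of all genes (-0.60 ± 0.13 and -0.59 ± 0.13, SE; adjusted p = 0.0372 and 0.0439 in limma), and each call was lost under 11 of 17 alternatives. Pvalb was also lower on average in KI cerebellum, by a log2 difference of -0.57 ± 0.13 (SE), and was not called there (adjusted p = 0.310 in limma). Of the 9 muscle markers tested in the cerebellum, 5 had positive and 4 negative differences. Eda2r and Zmat3 were higher in KI muscle, and a link to these markers was not tested.

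Macrophage markers had positive differences for all 10 tested of 12 in KI muscle, with a median of 0.28 and 0 called in limma (3 at an unadjusted p under 0.05); 55% of all genes were positive and 20.3% had such a p. Their summed level was 706 to 813 on the KI arrays, against 604 to 635 on the WT arrays. In the cerebellum, all 8 tested of the same markers were positive too, against 47.5% of all genes, with a median of 0.30. The macrophage markers summed to 689 to 721 on KI cerebellum arrays, against 584 to 591 on WT cerebellum arrays. Satellite cell markers summed to 488 to 576 in KI muscle, against 471 to 488 in WT muscle. Fibroblast markers summed to 3065 to 5080 in KI muscle, against 3588 to 3824 in WT muscle, and endothelial markers to 1629 to 1942 in KI, against 1687 to 1886 in WT. For proliferating cells, 3 of 7 named markers were tested, and the sum was 201 to 204 in KI muscle, against 187 to 205 in WT muscle. The part of the lower muscle markers and higher macrophage markers in the rise of Eda2r and Zmat3 was not tested.

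The 5 genes whose pattern was most like that of Eda2r were found by the root mean square (RMS) difference of log2 values over the 8 arrays, after centring each gene on its mean in each tissue. They were Jpt1 (0.117), Acot10, an acyl-CoA thioesterase (0.131), Mustn1, a nuclear protein of muscle and skeleton (0.133), the toll-like receptor gene Tlr4 (0.139) and Sh2d4a (0.154). A flat gene would stand 0.522 from Eda2r. The measure is set mostly by the muscle arrays, so it selects genes with a like KI difference in muscle, from 1.09 for Mustn1 to 1.48 for Sh2d4a (log2). Jpt1 was at 8.26 and 8.35 in KI muscle, against 6.97 and 7.05 in WT muscle. Levels in the cerebellum were not matched: Jpt1 was between 7.02 and 7.16 there, while Tlr4, like Eda2r, was low, between 3.49 and 3.96.

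**Figure D4:**
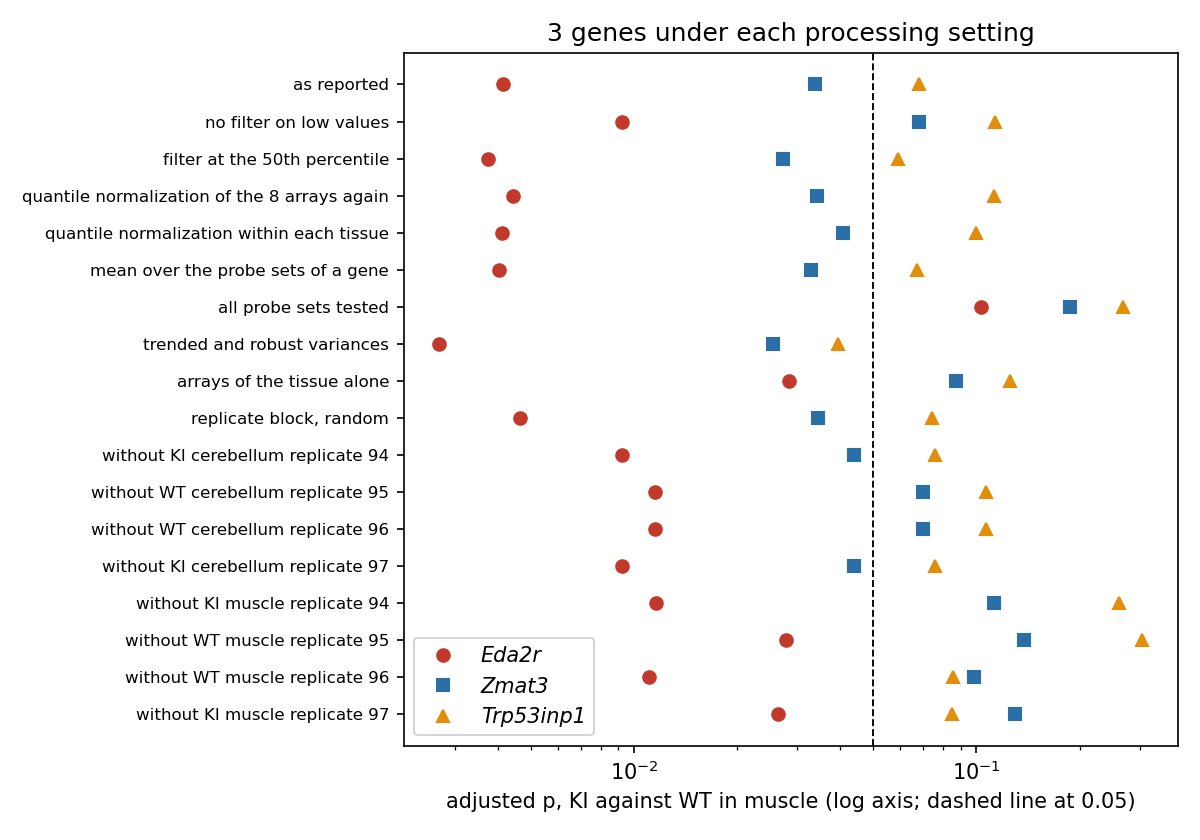
Adjusted p of KI against WT in muscle (log axis) for Eda2r, Zmat3 and Trp53inp1 under each processing setting, with a dashed line at 0.05. Eda2r crossed the line under 1 alternative of 17, Zmat3 under 9 of 17, and Trp53inp1 passed under 1 of 17.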

How the data were processed

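Total RNA from the TA muscle and cerebellum was labelled with biotin and hybridised to the arrays. What the authors deposited is a log2 value for every probe set on every array. GCOS and RMA were used, per the submitters' processing notes; versions, build and the set of arrays normalised jointly are not given in the sources used. RMA normalises arrays to a common distribution, so a shift shared by most genes would not be seen.

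Of 35556 probe sets, 21789 carried 1 gene symbol in the platform annotation, 1621 several and 12146 none. The brightest probe set per gene by mean over the 8 arrays was used. Genes entered the test of a tissue if 2 or more of the 4 arrays reached the 40th percentile of the probe sets on that array. A model with 4 group means was fitted with limma 3.58.1 in R 4.3.3 (lmFit and eBayes; 4 residual and 5.30 prior degrees of freedom), with Benjamini-Hochberg adjustment over all genes tested; the procedure was tested on simulated data. Folds are 2 raised to the log2 difference. Summed marker levels add values taken off the log2 scale. Promoters were searched on both strands with Python 3.11.15.

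Named genes were the set, members of each pathway or marker list that were called or among the 3 smallest unadjusted p in muscle, the 5 genes most like Eda2r, and Tbp, with values given for those the results turn on; Eda, Nfkb2, Relb, Mdm4, Xist and Kdm5d were added after their values were seen. Cdkn2a and Adgre1 were likewise added after their values were seen. The likeness to Cdkn1a could not be computed. The genes and lists were chosen with earlier results of these data known. Alternatives covered the filter, the normalization, the probe set of a gene, the variance model, the arrays fitted, each array left out, the replicate number as a block, and an adjusted p under 0.1.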

Additional observations from a re-analysis of the deposited data

How the results depend on the processing

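The 2 calls of the set in muscle (Eda2r and Zmat3) became 1 without the filter on low values and with the muscle arrays fitted alone, 0 with all 35556 probe sets tested, 1 to 2 with an array left out, and 3, with Trp53inp1, both at an adjusted p under 0.1 and with trended and robust variances. Eda2r kept its call under 16 of 17 alternatives, with log2 differences from 1.21 to 1.62. The tissue difference of Eda2r counted as 1 call at an adjusted p under 0.1, against 0 at 0.05. The 1 call among other p53 targets (Tigar) became 2 at an adjusted p under 0.1, 0 without the filter, with all probe sets and with the muscle arrays alone, and 0 to 1 with an array left out. The 0 calls among p53 regulators became 2 at an adjusted p under 0.1 and 1, Hipk2 (adjusted p = 0.0396), with trended and robust variances. The 1 call around EDA2R (Birc3) became 0 without the filter, with all probe sets and with the muscle arrays alone, and 0 to 1 with an array left out. Over all genes, the 495 calls in muscle became 246 without the filter, 155 with the muscle arrays alone, 0 with all probe sets (4374 at an unadjusted p under 0.05) and 105 to 385 with an array left out. In the cerebellum 28 became 18 without the filter, 0 with all probe sets (1281 at an unadjusted p under 0.05) and 4 to 29 with an array left out. For the tissue difference 21 became 3 without the filter, 0 with all probe sets (2968), 63 with trended and robust variances and 0 to 23 with an array left out. The muscle calls over all genes rose to 706 with trended and robust variances and to 557 with the filter at the 50th percentile. They became 376 with quantile normalization over the 8 arrays and 396 with it within tissues. Sign changes occurred only among differences that were not called. Leaving out arrays in turn gave log2 differences from -0.0395 to 0.128 for Zmat3 in the cerebellum, -0.222 to 0.146 for Mdm2 in muscle, -0.133 to 0.235 for the Mdm2 difference between tissues, -0.077 to 0.0076 for Ccng1 in muscle, -0.344 to 0.0664 for Ccng1 in the cerebellum, -0.101 to 0.309 for the Ccng1 difference between tissues, -0.0343 to 0.493 for Phlda3 in the cerebellum and -0.0166 to 0.502 for Plk2 in muscle. Quantile normalization over 8 arrays or within tissues gave -0.0546 and -0.0614 for the Mdm2 difference between tissues and 0.0138 and 0.0132 for Ccng1 in muscle. The cause of these changes was not tested.

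Replicate numbers recur in both tissues, but no label says that they are animals, so the numbers were not taken as pairs. The deviations of same-numbered arrays from their group means correlated at 0.06 for 94 and 97 and -0.10 for 95 and 96 over 14708 genes. With 2 arrays per group the deviations are equal and opposite, so both numbers of a genotype must give the same value. These correlations cannot tell whether same-numbered arrays share an animal. With the number as a random replicate block the set kept 2 calls in muscle (Eda2r adjusted p = 0.00465), and the calls over all genes were 494 for muscle, 27 for cerebellum and 18 for the tissue difference. With a fixed block, 14 genes were called for the tissue difference, and the set had 0.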

Other observations

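Relatives of the set that are not classical p53 targets were called in neither tissue by limma. Over all genes, 3.55% were called in muscle and 0.205% in the cerebellum. Of 15 relatives listed, 14 were tested in muscle, with 9 positive and 5 negative differences. Their median was 0.06 (log2), and 0 had an unadjusted p under 0.05 in limma, against 20.3% of all genes. Zmat2 and Zmat5, zinc-finger genes related to Zmat3, had differences of 0.34 and 0.22 in KI muscle (adjusted p = 0.331 and 0.285 in limma), and Cdkn1c, a cell-cycle inhibitor related to Cdkn1a, had 0.21 (adjusted p = 0.456). In the cerebellum all 15 were tested, with 7 positive and 8 negative differences. There 1 had an unadjusted p under 0.05 in limma, against 5.33% of all genes.

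Eda2r lies on the X chromosome. Xist, whose RNA coats the silent X chromosome, had levels of 9.34 to 10.44 over the 8 arrays of both genotypes, while Kdm5d, a Y-linked gene, had at most 3.90. Cerebellum markers had negative differences for 8 of 9 genes in KI cerebellum, with a median of -0.25 (log2). By limma 0 were called, against 0.205% of all genes, and 3 had an unadjusted p under 0.05, against 5.33%. These markers summed to 9752 to 11462 on the KI arrays, against 12833 to 14569 on the WT arrays.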
